A study of Mus musculus with 6 samples.

Results

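The collapsin response mediator proteins (CRMPs) are encoded in the mouse by 5 genes, Crmp1, Dpysl2, Dpysl3, Dpysl4 and Dpysl5. Their transcripts were followed in cultured neurons of the embryonic cortex before and during axon formation, and in neurons labelled as lacking the splicing regulator Ptbp2. The family was taken by gene symbol, and its rows were 5 of the 49671 genes and 29 of the 123063 transcripts in the deposited tables. The libraries formed 3 groups of 2, namely wild-type (WT) neurons after 3 days in vitro (DIV3), Ptbp2 KO neurons after 1 day in vitro (DIV1) and WT neurons at DIV1. All were cortical neurons of strain C57BL/6, taken from the neocortex at embryonic day 14, plated in 35 mm dishes in medium with horse serum and moved to Neurobasal with B-27 after 6 hours. The genotype of the Ptbp2 KO group is written Ptbp2-/- in the design text, and the labels used here name neither the deleted exons nor a Cre driver.

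CRMPs are cytosolic phosphoproteins that resemble the enzyme dihydropyrimidinase but are known for binding the cytoskeleton. They were named for their part in the collapse of the growth cone that semaphorin 3A (collapsin) sets off through neuropilin and plexin receptors. The best studied of them, CRMP2 (the product of Dpysl2), binds tubulin dimers and kinesin 1, promotes microtubule assembly in the growing axon, and releases tubulin when it is phosphorylated by Cdk5 and Gsk3. CRMPs assemble into tetramers, often of different members, and are abundant in newborn neurons.

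Total expected counts were 75522198 and 39104879 in WT DIV3, 53372137 and 71461054 in Ptbp2 KO DIV1, and 47044778 and 49017376 in WT DIV1. The 2 Ptbp2 KO libraries stood apart from each other. Replicates differed on the log2 scale with an SD of 0.27 in WT DIV3, 0.39 in Ptbp2 KO and 0.26 in WT DIV1 across 11046 genes averaging 5 CPM or more (CPM are counts scaled to the same library total). Replicate 1 minus replicate 2 was correlated with transcript length by Spearman's method at 0.51 in WT DIV3, -0.68 in Ptbp2 KO and 0.42 in WT DIV1 across genes, which are not independent replicates. Ptbp2 itself was measured at 403 and 382 CPM in WT DIV3, 474 and 514 CPM in Ptbp2 KO and 465 and 429 CPM in WT DIV1. Where a deletion leaves most of a transcript in place, a whole-gene count is no check of the genotype, and Ptbp2 KO is used here as the name of the labelled group. The 8 neuronal markers (Tubb3, Map2, Dcx, Rbfox3, Snap25, Stmn2, Syn1 and Elavl3), all detected, summed to 9313 and 9506 CPM in WT DIV3, 5640 and 5689 CPM in Ptbp2 KO and 5885 and 5863 CPM in WT DIV1.

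On GRCm38, Crmp1 (ENSMUSG00000029121) lies on the forward strand at chr5:37241940-37292133 and Dpysl5 (ENSMUSG00000029168) on the same strand at chr5:30711564-30799375. Dpysl2 (ENSMUSG00000022048) lies on the reverse strand at chr14:66802864-66868688, Dpysl3 (ENSMUSG00000024501) on the reverse strand at chr18:43320984-43438286, and Dpysl4 (ENSMUSG00000025478) on the forward strand at chr7:139086001-139102704.

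Of the 29 transcripts, 10 belong to Crmp1, 1 to Dpysl2, 5 to Dpysl3, 6 to Dpysl4 and 7 to Dpysl5. In 1 group or more, 11 of them averaged 5% or more of the counts of their gene, and 4 had no count in any of the 6 libraries.

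Crmp1, Dpysl2, Dpysl3 and Dpysl4 each have a transcript whose first coding exon holds 39 coding bases, and its reading frame is 1716 bases in Crmp1-201, Dpysl2-201 and Dpysl4-201 and 1710 bases in Dpysl3-201. Crmp1 and Dpysl3 have, in addition, a transcript that starts from an upstream first exon with a longer coding stretch, 381 bases in Crmp1-202 and 378 bases in Dpysl3-204, and reading frames of 2058 and 2049 bases. Dpysl5 has a reading frame of 1692 bases in both Dpysl5-203 and Dpysl5-201. The shared short starts are shown from the GENCODE transcripts because they are the part of the gene that separates the 2 forms. Bases of the first coding exon are in lower case and the first 21 bases of the exon that follows are in capitals. The line for Crmp1-202 shows the last 39 bases of its own first exon joined to that same exon.
Crmp1-201: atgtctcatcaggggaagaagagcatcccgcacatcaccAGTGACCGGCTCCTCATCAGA
Dpysl2-201: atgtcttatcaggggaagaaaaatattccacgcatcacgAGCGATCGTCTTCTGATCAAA
Dpysl4-201: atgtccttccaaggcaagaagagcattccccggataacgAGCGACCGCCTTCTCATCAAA
Crmp1-202: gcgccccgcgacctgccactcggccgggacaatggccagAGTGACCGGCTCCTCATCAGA
In the first 39 coding bases, Crmp1-201 and Dpysl2-201 were identical at 31 positions, Dpysl2-201 and Dpysl4-201 at 28, and Crmp1-201 and Dpysl4-201 at 27. The sequence in capitals is the same in both Crmp1 transcripts, which share 12 of their 14 exons and 13 of their 14 coding segments.

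Each Crmp1 first exon has a start of its own in RefSeq (GRCm38.p6). The 250 bases before the start of Crmp1-201 and before that of Dpysl5-203 are shown, since both transcripts carry most of the counts of a gene that was higher in WT DIV3. Capitals mark matches to the GC box, GGGCGG on either strand, with overlapping matches counted.
Crmp1-201 start, chr5:37245514-37245763, forward strand: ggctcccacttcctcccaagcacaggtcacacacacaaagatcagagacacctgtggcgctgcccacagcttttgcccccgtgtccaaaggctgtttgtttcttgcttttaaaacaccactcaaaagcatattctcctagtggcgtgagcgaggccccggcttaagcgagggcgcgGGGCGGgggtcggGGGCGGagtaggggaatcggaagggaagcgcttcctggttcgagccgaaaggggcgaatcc
Dpysl5-203 start, chr5:30711314-30711563, forward strand: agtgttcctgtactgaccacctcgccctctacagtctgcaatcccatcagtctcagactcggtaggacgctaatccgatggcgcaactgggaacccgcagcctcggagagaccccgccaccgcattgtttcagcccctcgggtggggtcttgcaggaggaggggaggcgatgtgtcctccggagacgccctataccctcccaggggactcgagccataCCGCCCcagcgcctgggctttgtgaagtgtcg
The Crmp1-201 window held 2 GC boxes, 16 CpG dinucleotides and a GC content of 59.6%, and the Dpysl5-203 window 1 GC box, 17 CpG dinucleotides and 62.8% GC. The window before the upstream Crmp1 start, chr5:37241808-37242057, held 5 GC boxes, 30 CpG dinucleotides and 75.6% GC. Over the 250-base windows of all 32851 RefSeq starts the median was 6 CpG dinucleotides and 52.4% GC, and 32.7% of the windows held a GC box. The letters TATAAA (in 12.4% of all windows) and CCAAT (in 33.8%), searched on both strands, were in none of the 3 windows.

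Levels of different genes were compared as TPM, that is, expected counts divided by annotated transcript length and scaled to the same total in every library, as computed here. By mean TPM the order was Dpysl3, Crmp1, Dpysl5, Dpysl2 and Dpysl4 in all 3 groups. Dpysl3 (CRMP4), which binds actin and tubulin in the growth cone, was at 1979 and 1778 TPM in WT DIV3, 751 and 978 TPM in Ptbp2 KO, and 1066 and 996 TPM in WT DIV1. Crmp1, a transducer of semaphorin 3A signals, was at 1311 and 1396 TPM in WT DIV3, 805 and 808 TPM in Ptbp2 KO, and 815 and 840 TPM in WT DIV1. In WT DIV3 and WT DIV1 both libraries of Dpysl3 lay above both of Crmp1, whereas in Ptbp2 KO the 2 genes overlapped. Dpysl5 (CRMP5), which counters the neurite-promoting effect of CRMP2, was at 711 and 653 TPM in WT DIV3, 309 and 394 TPM in Ptbp2 KO, and 446 and 439 TPM in WT DIV1. Dpysl2 was at 264 and 352 TPM in WT DIV3, 373 and 274 TPM in Ptbp2 KO, and 237 and 269 TPM in WT DIV1. Dpysl5 and Dpysl2 also overlapped in Ptbp2 KO and in neither WT group. Dpysl4 (CRMP3), the least abundant member, was at 47.0 and 45.0 TPM in WT DIV3, 34.6 and 38.9 TPM in Ptbp2 KO, and 36.5 and 37.4 TPM in WT DIV1. Its mean was below that of Dpysl2 by a factor of 6.70 in WT DIV3, 8.80 in Ptbp2 KO and 6.86 in WT DIV1. By mean TPM over the 6 libraries Dpysl3 ranked 88, Crmp1 125, Dpysl5 282, Dpysl2 535 and Dpysl4 4729 among 49429 genes.

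The 5 genes together summed to 4313 and 4224 TPM in WT DIV3, 2272 and 2493 TPM in Ptbp2 KO, and 2600 and 2582 TPM in WT DIV1. The sum was not computed in CPM, the scale of the comparisons below. On that scale Dpysl5 alone was lower in both Ptbp2 KO libraries than in both WT DIV1 libraries, so the lower sum in Ptbp2 KO holds for TPM only. In bulk samples fewer cells of a type and less RNA per cell cannot be told apart, and this holds for every level given here. Of that sum Dpysl3 took 45.9% and 42.1% in WT DIV3, 33.1% and 39.3% in Ptbp2 KO, and 41.0% and 38.6% in WT DIV1. The share of Dpysl2 was 6.13% and 8.33% in WT DIV3, 16.4% and 11% in Ptbp2 KO, and 9.13% and 10.4% in WT DIV1. Dpysl2 thus held its lowest shares of the family in WT DIV3. Its highest was in Ptbp2 KO replicate 1, while replicate 2, at 11%, was close to WT DIV1 replicate 2, at 10.4%. How often such shares part between groups was not counted, and the part of the length trend in them was not tested. The share of Crmp1 stayed between 30.4% and 35.4% in all 6 libraries, and that of Dpysl4 between 1.07% and 1.56%. Dpysl5 took 16.5% and 15.5% in WT DIV3, 13.6% and 15.8% in Ptbp2 KO, and 17.1% and 17.0% in WT DIV1.

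**Figure D1:**
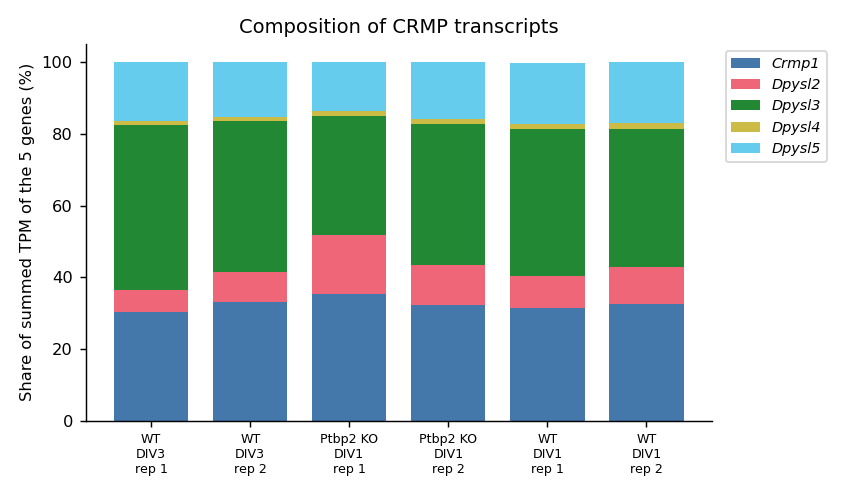
Composition of CRMP transcripts in each library, as the percentage of the summed TPM of the 5 genes (vertical axis) for the 6 libraries (horizontal axis), with 1 colour per gene. Dpysl3 and Crmp1 fill most of every bar, and the Dpysl2 segment is widest in Ptbp2 KO replicate 1, at 16.4%.

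The first comparison asked how the family changes in WT neurons between the stage of equal neurites and that of axon growth. Levels of 1 gene across libraries are given as CPM scaled with TMM factors, which are not divided by transcript length. Dpysl3 had 4496 and 4387 CPM in WT DIV3, against 2488 and 2375 CPM in WT DIV1. Crmp1 had 1570 and 1713 CPM in WT DIV3, against 952 and 997 CPM in WT DIV1. Dpysl5 had 1450 and 1425 CPM in WT DIV3, against 912 and 917 CPM in WT DIV1. In all 3 genes both DIV3 libraries lay far above both DIV1 libraries, and the gap exceeded the spread within either pair. Dpysl4 had 56.9 and 57.3 CPM in WT DIV3, against 45.3 and 45.7 CPM in WT DIV1, a smaller step between tight pairs. Dpysl2 had 556 and 767 CPM in WT DIV3, against 491 and 563 CPM in WT DIV1, and its groups overlapped.

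**Figure D2:**
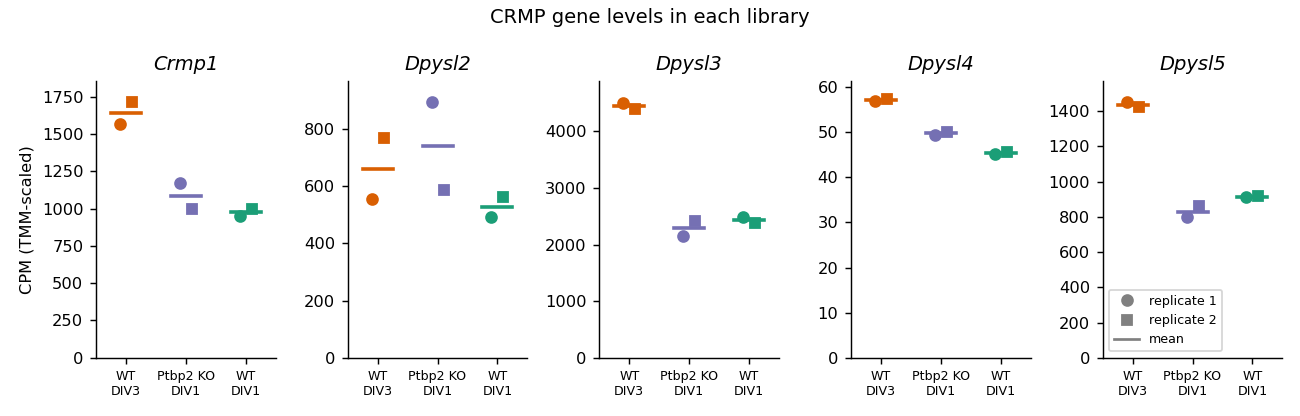
CRMP gene levels in each library, in CPM with TMM scaling (vertical axis from 0, own scale per gene), for WT DIV3, Ptbp2 KO DIV1 and WT DIV1. Circles are replicate 1, squares replicate 2 and bars the mean of 2. Crmp1, Dpysl3, Dpysl4 and Dpysl5 are highest in WT DIV3, while the points of Dpysl2 overlap between the WT groups.

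By edgeR's quasi-likelihood test 4 of the 5 genes passed at an adjusted p under 0.05, all 4 higher in WT DIV3. The background was 36.1% of 16847 tested genes called, 19.8% higher and 16.4% lower. The log2 fold change (± SE) of Dpysl3 was 0.87 ± 0.11 (1.83-fold, adjusted p = 0.00127), and it stood at percentile 90.3 of the log2 fold changes of all tested genes. Crmp1 rose by 0.75 ± 0.12 on the log2 scale (1.68-fold, adjusted p = 0.0031, percentile 88.2). Dpysl5 rose by 0.65 ± 0.09 (1.57-fold, adjusted p = 0.00215, percentile 86.0). Dpysl4 rose by 0.33 ± 0.07 (1.26-fold, adjusted p = 0.0113, percentile 74.5). Dpysl2 had the same log2 fold change, 0.33 ± 0.23, with an SE wide enough that it did not pass (adjusted p = 0.301). The 2 groups did not overlap in these same 4 genes, and they did not overlap in 76.2% of all tested genes.

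The calls of Dpysl3, Crmp1 and Dpysl5 held without any 1 of the 4 WT libraries, with adjusted p between 0.0111 and 0.0246 for Dpysl3, 0.0168 and 0.0375 for Crmp1 and 0.0197 and 0.035 for Dpysl5. The call of Dpysl4 ended in every such fit, with adjusted p = 0.0998 without WT DIV3 replicate 1, 0.0792 without WT DIV3 replicate 2, 0.112 without WT DIV1 replicate 1 and 0.0947 without WT DIV1 replicate 2. Its log2 fold change stayed at 0.32 to 0.33, and the count of called genes in the same fits was 2954, 3408, 2959 and 2743, against 6088 with all libraries. With library totals in place of TMM, which put the median of all genes at -0.13 against -0.02 and the share of calls that were higher at 39.1% against 54.7%, the log2 fold change of Dpysl4 was 0.21 (adjusted p = 0.0557).

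Other cell types moved over the same interval. Beside the neuronal markers, of which 6 of 8 were called higher, 7 of 7 intermediate progenitor markers were lower and summed to 380 and 360 CPM in WT DIV3, against 714 and 696 CPM in WT DIV1. Radial glia markers, 7 lower and 2 higher of 10, summed to 1854 and 1898 CPM in WT DIV3, against 2044 and 1985 CPM in WT DIV1. Astrocyte markers summed to 183 and 170 CPM in WT DIV3 against 134 and 132 CPM in WT DIV1, and pericyte and fibroblast markers to 54.1 and 54.3 CPM against 16.4 and 17.8 CPM. Interneuron markers summed to 178 and 164 CPM in WT DIV3 against 72.1 and 80.2 CPM in WT DIV1, and oligodendrocyte lineage markers to 52.6 and 48.0 CPM against 31.6 and 30.8 CPM. Microglial markers (3.58 and 6.27 CPM in WT DIV3, 8.37 and 8.41 CPM in WT DIV1), endothelial markers (2.30 and 3.61 CPM, 3.96 and 3.54 CPM) and erythroid markers (1.17 and 1.40 CPM, 23.7 and 12.3 CPM) were smaller still. No marker was at 0 in all 6 libraries. The part of these shifts in the CRMP changes was not tested.

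The pathway around the CRMPs was described by lists of genes for the receptors upstream, the kinases and phosphatases that act on CRMPs, and their cargo and partners. Of 13 genes of the semaphorin 3A receptor pathway, 6 were called higher and 1 lower in WT DIV3, against 19.8% higher and 16.4% lower over all tested genes. Their median log2 fold change was 0.32 against -0.02 over all tested genes. With only the 2 WT groups in the fit, 11 were higher and 1 lower, where 8566 genes were called in all, 4449 higher and 4117 lower. Mical2, an oxidoreductase that acts on actin, had 34.0 and 30.5 CPM in WT DIV3, against 5.45 and 5.50 CPM in WT DIV1, which on the log2 scale is a change of 2.56 ± 0.16 (adjusted p = 0.000143, edgeR). Its relative Mical1, known to bind CRMPs, went the other way, with 8.78 and 10.7 CPM in WT DIV3, against 32.0 and 34.8 CPM in WT DIV1 (-1.79 ± 0.13, adjusted p = 0.000216). Rnd1, a small GTPase that binds plexins, had 31 and 33.6 CPM in WT DIV3, against 11 and 11.4 CPM in WT DIV1 (1.52 ± 0.10, adjusted p = 0.000174). Each of these 3 genes had DIV3 libraries well apart from its DIV1 libraries. Plxna2, the most abundant gene of the list that did not pass, had 696 and 607 CPM in WT DIV3, against 548 and 507 CPM in WT DIV1 (0.30 ± 0.15, adjusted p = 0.155).

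Of 14 kinases, kinase activators and phosphatases, 6 were called higher and none lower, against 19.8% higher and 16.4% lower over all tested genes. Their median log2 fold change was 0.31. Both Cdk5 activators were among them, and Cdk5 itself was not (0.12 ± 0.13, adjusted p = 0.519, edgeR). Cdk5r2, which encodes the activator p39, had 43.6 and 42.9 CPM in WT DIV3, against 9.24 and 9.25 CPM in WT DIV1 (2.23 ± 0.10, adjusted p = 6.49e-05, edgeR). Cdk5r1, which encodes the activator p35, had 564 and 531 CPM in WT DIV3, against 395 and 380 CPM in WT DIV1 (0.50 ± 0.10, adjusted p = 0.00992). Fyn, a tyrosine kinase reported to phosphorylate CRMPs, had 256 and 254 CPM in WT DIV3, against 200 and 195 CPM in WT DIV1 (0.37 ± 0.07, adjusted p = 0.00663). Gsk3b, a follow-on kinase, had 385 and 342 CPM in WT DIV3, against 321 and 287 CPM in WT DIV1, and did not pass (0.26 ± 0.15, adjusted p = 0.215). The related Gsk3a was called higher (0.38 ± 0.09, adjusted p = 0.0169, edgeR). Gsk3a and Cdk5 were named after their values were seen. With the replicate number as a block, 3 genes of the list were called higher, where 2647 were over all genes. With only the 2 WT groups in the fit 9 were higher and 1 lower, where 4449 and 4117 were over all genes. With 1 library left out fewer were called, as over all genes, and the median log2 fold change of the list stayed between 0.28 and 0.34.

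Among 16 partners and cargo genes, 12 were called higher and 1 lower, against 19.8% higher and 16.4% lower over all tested genes. Their median log2 fold change was 0.71. Mapt, which encodes the axonal microtubule protein tau, had 2356 and 2440 CPM in WT DIV3, against 770 and 827 CPM in WT DIV1 (1.59 ± 0.10, adjusted p = 0.000135, edgeR). Ntrk2, the BDNF receptor that CRMP2 links to kinesin for transport, had 311 and 269 CPM in WT DIV3, against 101 and 94.7 CPM in WT DIV1 (1.57 ± 0.10, adjusted p = 0.000147). Wasf1, a subunit of the actin-regulating WAVE complex, had 194 and 196 CPM in WT DIV3, against 91.6 and 90.5 CPM in WT DIV1 (1.10 ± 0.08, adjusted p = 0.000174). In all 3 the DIV3 libraries were above the DIV1 libraries without overlap. Kif5b, a kinesin 1 heavy chain, had 269 and 240 CPM in WT DIV3, against 241 and 211 CPM in WT DIV1, and did not pass (0.17 ± 0.15, adjusted p = 0.419). The gene called lower was Numb, an endocytic adaptor that binds CRMP2, at -0.67 ± 0.10 (adjusted p = 0.00257), which was named after its value was seen. With 1 WT library left out fewer of the 16 were called higher, as over all genes, and the median stayed between 0.69 and 0.71. Of the enzymes of pyrimidine breakdown, which include dihydropyrimidinase, Dpyd was the 1 of 3 expressed enough to test, at 1.51 and 1.35 CPM in WT DIV3 and 0.891 and 1.12 CPM in WT DIV1 (0.51 ± 0.24, adjusted p = 0.148).

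**Figure D3:**
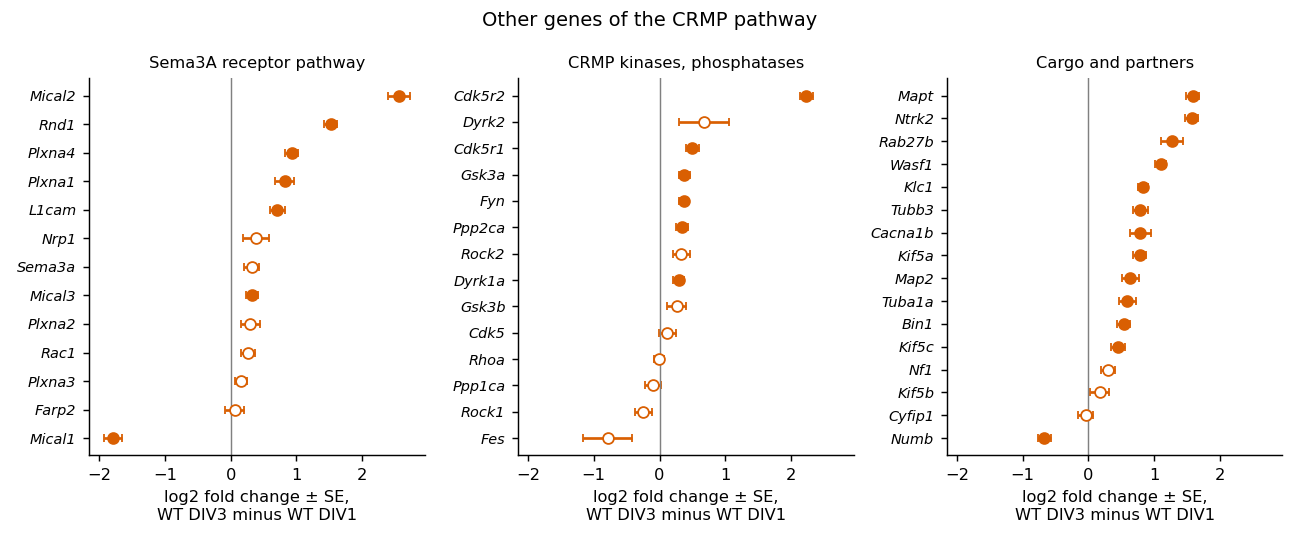
Log2 fold change ± SE of WT DIV3 minus WT DIV1 (horizontal axis) for each gene of the 3 pathway lists (vertical axis); filled points passed edgeR's test at an adjusted p under 0.05 and open points did not. Mical2 at 2.56 and Cdk5r2 at 2.23 lie farthest to the right, and Mical1 at -1.79 and Numb at -0.67 are the filled points left of 0.

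The second comparison asked what the label Ptbp2 KO changes at DIV1, set against the same WT DIV1 libraries as in the first. Dpysl2 had 893 and 587 CPM in Ptbp2 KO, against 491 and 563 CPM in WT DIV1, so that both Ptbp2 KO libraries were higher, replicate 1 by far the most. Dpysl4 had 49.5 and 50.1 CPM in Ptbp2 KO, against 45.3 and 45.7 CPM in WT DIV1, again without overlap. Dpysl5 had 797 and 864 CPM in Ptbp2 KO, against 912 and 917 CPM in WT DIV1. By CPM, though not by TPM, it was the one member whose Ptbp2 KO libraries were both lower. Crmp1 overlapped between 1174 and 995 CPM in Ptbp2 KO and 952 and 997 CPM in WT DIV1, as did Dpysl3 between 2153 and 2422 CPM in Ptbp2 KO and 2488 and 2375 CPM in WT DIV1. By CPM the groups thus did not overlap in 3 of the 5 members, and they did not in 53.1% of all tested genes. TPM is divided by length and scaled to each library's own total without TMM factors, a scaling that moves all genes of a library together. On that scale Dpysl4 overlapped, at 34.6 and 38.9 in Ptbp2 KO against 36.5 and 37.4 in WT DIV1. Both Ptbp2 KO libraries were then below both WT DIV1 libraries in Crmp1, Dpysl3 and Dpysl5, and above them in Dpysl2. The part of the scaling in these positions was not tested, and TPM does not remove the trend with length. In edgeR's fit with that trend removed, Crmp1, Dpysl3 and Dpysl5 had log2 fold changes of 0.16, 0.07 and 0.02.

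None of the 5 passed edgeR's test, and none of the 16847 genes did (0%), although 2475 genes had an unadjusted p under 0.05. DESeq2 called 201 genes and no member of the family. The log2 fold change of Dpysl2 was 0.49 ± 0.23 (adjusted p = 0.335), at percentile 94.1 of all tested genes. The others were 0.15 ± 0.12 for Crmp1 (adjusted p = 0.473), 0.13 ± 0.07 for Dpysl4 (adjusted p = 0.355), -0.09 ± 0.11 for Dpysl3 (adjusted p = 0.653) and -0.14 ± 0.09 for Dpysl5 (adjusted p = 0.428). The value of Dpysl2 rested on Ptbp2 KO replicate 1. It was 0.16 (adjusted p = 0.845) without that library and 0.76 (adjusted p = 0.0121) without Ptbp2 KO replicate 2, where 43 and 5549 genes were called. Each of these fits holds 1 Ptbp2 KO library, which is assumed to vary like the WT pairs, although the Ptbp2 KO pair differed more than they did. Without a filter on low counts Dpysl2 passed, at the same 0.49 (adjusted p = 0.0252), and 1061 genes did. Dpysl3 and Dpysl5 have long transcripts, with count-weighted lengths of 5325 and 5075 bases at percentiles 82.7 and 80.6 of all genes. Once the trend with length was removed from each library they stood at 0.07 and 0.02, no longer below 0, and Dpysl2, at 4520 bases, stood at 0.63 (adjusted p = 0.363).

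**Figure D4:**
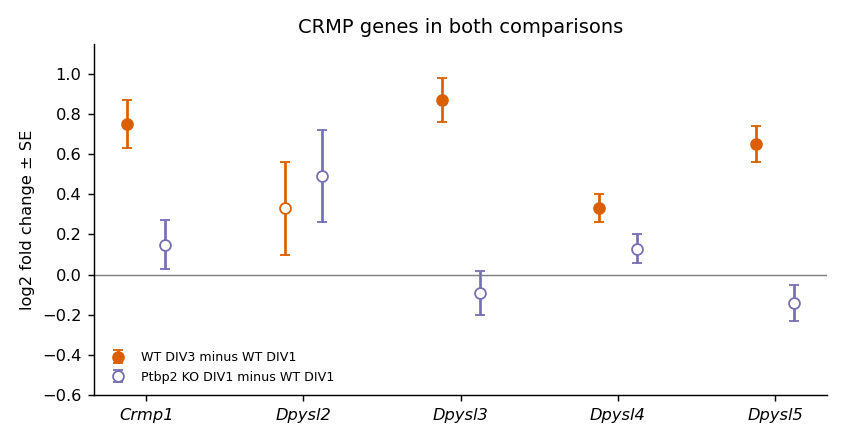
Log2 fold change ± SE (vertical axis) of the 5 genes (horizontal axis) for WT DIV3 minus WT DIV1 and for Ptbp2 KO DIV1 minus WT DIV1, which share the WT DIV1 libraries. Filled points passed edgeR's test at an adjusted p under 0.05; 4 of the 5 orange points are filled and no purple one is, and Dpysl2 has the widest error bars, 0.23 in each comparison.

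By edgeR's test with the low-count filter, the pathway lists gave no call in either direction in Ptbp2 KO. DESeq2, which called 201 genes in all, called 1 partner gene higher. Without that filter, where edgeR called 1061 genes in all, 1 gene was called lower in each of the semaphorin, kinase and partner lists. With the filter, the median log2 fold change was -0.25 for the semaphorin 3A receptor pathway, 0.05 for the kinases and phosphatases and -0.13 for the partners, against 0.00 over all genes. These too moved with 1 library. Without Ptbp2 KO replicate 1 the medians were -0.15, 0.03 and -0.03, and without Ptbp2 KO replicate 2 they were -0.35, -0.04 and -0.22. Each of these fits again holds 1 Ptbp2 KO library. The most abundant genes that did not pass were Plxna2 (354 and 467 CPM in Ptbp2 KO, 548 and 507 CPM in WT DIV1, -0.36 ± 0.15, adjusted p = 0.333), the phosphatase subunit Ppp2ca (537 and 510 CPM in Ptbp2 KO, 492 and 474 CPM in WT DIV1, 0.12 ± 0.09, adjusted p = 0.469) and the tubulin Tuba1a (7677 and 6448 CPM in Ptbp2 KO, 6128 and 6388 CPM in WT DIV1, 0.17 ± 0.13, adjusted p = 0.467). Tuba1a shares reads with near-identical tubulins, so its count is less certain. Progenitor markers were close, with intermediate progenitor sums of 711 and 700 CPM in Ptbp2 KO against 714 and 696 CPM in WT DIV1. Radial glia sums were 2323 and 2056 CPM in Ptbp2 KO against 2044 and 1985 CPM in WT DIV1, erythroid sums 37.9 and 29.9 CPM against 23.7 and 12.3 CPM, and no marker of any list was called.

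The transcripts of Crmp1 and Dpysl3 differed in which first exon they used most. Crmp1-201 took 91.6% and 88.3% of the gene's expected counts in WT DIV3, 84.3% and 88.7% in Ptbp2 KO, and 90.2% and 90.2% in WT DIV1. The long-start Crmp1-202 took 3.23% and 5.96% in WT DIV3, 13.2% and 6.34% in Ptbp2 KO, and 4.15% and 4.31% in WT DIV1. Ptbp2 KO replicate 1 was highest, and replicate 2, at 6.34%, was only just above WT DIV3 replicate 2, at 5.96%. How often shares part in this way over all transcripts was not counted. In Dpysl3 the long start was the main one, and Dpysl3-204 took 92.3% and 95.6% in WT DIV3, 99.1% and 96.9% in Ptbp2 KO, and 95.3% and 96.1% in WT DIV1. The short-start Dpysl3-201 took the rest, 7.69% and 4.44% in WT DIV3, 0.881% and 3.11% in Ptbp2 KO, and 4.68% and 3.88% in WT DIV1. These 2 transcripts also differ at the other end, where the last exon has 133 bases in Dpysl3-201 and 3437 bases in Dpysl3-204, and the part of the trend with length in their counts was not tested.

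Dpysl4 was the member with the most mixed transcripts. Dpysl4-202, whose first exon lies downstream of that of Dpysl4-201 and holds 191 coding bases, took 55.7% and 64.1% in WT DIV3, 77.4% and 66.8% in Ptbp2 KO, and 55.2% and 60.5% in WT DIV1. Dpysl4-201, with the short start shown above, took 27.0% and 21.7% in WT DIV3, 7.54% and 15.1% in Ptbp2 KO, and 22.6% and 14.1% in WT DIV1. In the share of Dpysl4-202, Ptbp2 KO replicate 1 was highest and replicate 2, at 66.8%, was close to WT DIV3 replicate 2, at 64.1%. For Dpysl4-201 the groups at DIV1 overlapped. Here too, the frequency of such a separation over all transcripts was not counted. The remaining transcripts over 5% are annotated as retaining an intron. Dpysl4-206 took 8.97% and 7.20% in WT DIV3, 5.97% and 9.75% in Ptbp2 KO, and 13.2% and 14.1% in WT DIV1. Dpysl4-203 took 3.83% and 3.59% in WT DIV3, 7.32% and 5.75% in Ptbp2 KO, and 5.43% and 7.25% in WT DIV1. All retained-intron transcripts of Dpysl4 together took 12.8% and 10.8% in WT DIV3, 13.3% and 15.5% in Ptbp2 KO, and 18.7% and 21.4% in WT DIV1, against 2.94% to 3.89% over all genes. Over the 5 members together the share was 0.796% and 0.620% in WT DIV3, 0.384% and 0.665% in Ptbp2 KO, and 0.853% and 0.834% in WT DIV1, all below the share over all genes.

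In Dpysl5 a single library departed from the others. Dpysl5-203 took 96.7% and 97.3% in WT DIV3, 81.3% and 97.6% in Ptbp2 KO, and 97.0% and 97.3% in WT DIV1. Dpysl5-201, which has the same 12 coding segments and differs from it outside the reading frame, took 17.5% in Ptbp2 KO replicate 1 and 0.127% in replicate 2, and between 0% and 0.114% in the WT libraries. In CPM it had 139 in that 1 library and at most 1.38 in the 5 others, so a mean of the Ptbp2 KO pair describes neither.

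**Figure D5:**
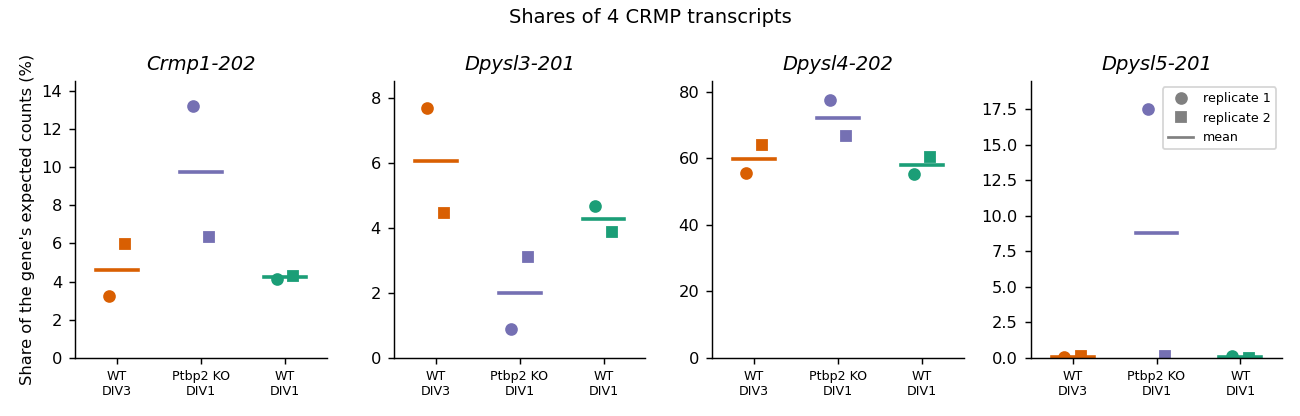
Share of the gene's expected counts in % (vertical axis from 0, own scale per panel) for 4 CRMP transcripts in WT DIV3, Ptbp2 KO DIV1 and WT DIV1; circles are replicate 1, squares replicate 2 and bars the mean of 2. Ptbp2 KO replicate 1 is the highest library for Crmp1-202 (13.2%), Dpysl4-202 (77.4%) and Dpysl5-201 (17.5%) and the lowest for Dpysl3-201 (0.881%).

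Isoform usage was tested with edgeR's diffSpliceDGE over 7645 genes. A gene was called at a Simes adjusted p under 0.05 with a change of at least 10 percentage points in a transcript's mean share. Neither comparison called Crmp1, Dpysl3, Dpysl4 or Dpysl5, against 0.458% of genes called between WT DIV3 and WT DIV1 and 0.562% between Ptbp2 KO and WT DIV1. Dpysl2 has 1 transcript and could not be tested. Between WT DIV3 and WT DIV1 the largest share difference was 0.366 points in Crmp1, 1.79 in Dpysl3, 5.95 in Dpysl4 and 0.0894 in Dpysl5. Between Ptbp2 KO and WT DIV1 it was 5.55 points in Crmp1, 2.29 in Dpysl3, 14.2 in Dpysl4 and 8.75 in Dpysl5, and the lowest adjusted p was 0.778, for Dpysl5. Without Ptbp2 KO replicate 2 the difference in Dpysl5 was 17.4 points (adjusted p = 0.0329), where 699 genes were called in place of 43. In that fit Ptbp2 KO is 1 library, which is assumed to vary like the WT pairs, so the p carries no replicate of the Ptbp2 KO group. Without Ptbp2 KO replicate 1, Dpysl5 was not tested, since Dpysl5-201 was then under the 5% share.

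At the level of single transcripts, 2.69% of 47918 were called between WT DIV3 and WT DIV1 (1.86% higher), and 0% between Ptbp2 KO and WT DIV1. The main forms of Dpysl3 and Crmp1 were among the calls. Dpysl3-204 had 4149 and 4191 CPM in WT DIV3, against 2371 and 2283 CPM in WT DIV1 (log2 fold change 0.87 ± 0.06, adjusted p = 0.0201, edgeR). Crmp1-201 had 1438 and 1513 CPM in WT DIV3, against 858 and 899 CPM in WT DIV1 (0.77 ± 0.11, adjusted p = 0.0401). Dpysl5-203 had 1403 and 1387 CPM in WT DIV3, against 884 and 892 CPM in WT DIV1, and fell just outside the threshold (0.68 ± 0.11, adjusted p = 0.0537). All 3 had DIV3 libraries far above their DIV1 libraries. With 1 of the 4 WT libraries left out no transcript of any gene was called, so those smaller fits say nothing on single transcripts, and the log2 fold changes stayed between 0.84 and 0.9 for Dpysl3-204 and between 0.72 and 0.83 for Crmp1-201. The minor forms varied more between replicates, with Dpysl3-201 at 346 and 195 CPM in WT DIV3 against 116 and 92.1 CPM in WT DIV1 (1.40 ± 0.67, adjusted p = 0.361). Crmp1-202 was at 50.7 and 102 CPM in WT DIV3 against 39.5 and 42.9 CPM in WT DIV1 (0.92 ± 0.56, adjusted p = 0.471). In Ptbp2 KO it was at 155 and 63.1 CPM against the same WT DIV1 values, both above them (1.5 ± 0.57, adjusted p = 0.597). Dpysl4-202 was at 38.3 and 33.5 CPM in Ptbp2 KO against 25.0 and 27.6 CPM in WT DIV1 (0.52 ± 0.16, adjusted p = 0.597).

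Across the 6 libraries Dpysl3 and Dpysl5 followed each other most closely, with a Pearson correlation of log2 CPM of 1.00. Crmp1 followed Dpysl4 at 0.94 and Dpysl3 at 0.90, and Dpysl2 followed none of them closely, with values from -0.04 with Dpysl5 to 0.42 with Crmp1. These are descriptions over 6 libraries that share the step between DIV1 and DIV3 and the differences in length trend between libraries. The comparison was with 10549 genes averaging at least 5 CPM, after predicted, clone-named, pseudogene and mitochondrially encoded symbols were left out. Those most like Dpysl3 included Sh3rf3 (0.9998) and B4galt6 (0.9997), and 446 genes reached 0.99. Those most like Dpysl5 were Dlgap1 (0.9998), Calb1 (0.9996) and Gabbr2 (0.9994), with 476 genes at 0.99 or above. Crmp1 was most like Acot7 (0.9987), Slc45a1 (0.998) and Stmn3 (0.9978), with 86 genes at that mark. Dpysl4 was most like Klc1 (0.9989), a kinesin light chain, then Ccdc91 (0.9982) and Syt9 (0.9952), and Dpysl2 most like Kctd2 (0.9977), Rgs19 (0.9935) and Zranb1 (0.9933), with 5 genes at 0.99 for each. Dpysl3 and Dpysl5 therefore shared their pattern with many more genes than Dpysl2 and Dpysl4 did.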

How the data were processed

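RNA sequencing libraries were made from cultured cortical neurons with a stranded total RNA kit, per the labels' protocols. The deposited values are expected counts per gene and per transcript, made with STAR and RSEM on GRCm38 (mm10), per the submitters' processing notes; the sources used here do not give versions or the annotation release. RSEM splits reads shared between transcripts by its model, and the tests do not carry that uncertainty. Identifiers were matched without version to GENCODE M21 (99.5% of genes, 99.4% of transcripts), and promoters were taken from RefSeq (GRCm38.p6).

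For the tests expected counts were rounded, low genes removed by filterByExpr at a minimum count of 10, libraries scaled by TMM with factors between 0.95 and 1.04, and groups compared by the quasi-likelihood test of edgeR 4.0.16 in R 4.3.3, all 6 libraries in 1 fit with 3 residual degrees of freedom and Benjamini-Hochberg adjustment over all genes or transcripts. SE is the size of the log2 fold change over the square root of F. Isoform usage used diffSpliceDGE on transcripts with a mean share of at least 5% in at least 1 group. Alternatives used DESeq2 1.42.0, limma 3.58.1, other scalings and filters, a length correction, a replicate block and libraries left out. Fits were tested on simulated data.

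Biological replicates are stated in the design text, without a word on separate embryos or litters, and p-values thus cover the spread between these libraries alone, which may be technical. Counts per gene differed between replicates by far more than sampling noise (chi-square per gene 17.3 in WT DIV3, 69.1 in Ptbp2 KO and 21.0 in WT DIV1). Named genes are the 5 members, their transcripts with at least 5% share, Ptbp2, per list and comparison the called genes lowest in adjusted p (3 at most) and the most abundant one not called, and per member the 3 genes with the highest correlation over 6 libraries; 1 gene that this rule names is not reported here. The members and gene lists were chosen with earlier results of these data known.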

Additional observations from a re-analysis of the deposited data

How the results depend on the processing

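For the 5 genes, Crmp1, Dpysl3 and Dpysl5 kept their direction and call between WT DIV3 and WT DIV1 under all 8 other settings and with each library left out. Dpysl4 stood at adjusted p = 0.0557 with library totals (log2 fold change 0.21) and was at 0.32 to 0.33 with 1 library left out, without a call. Genes called in that comparison numbered 2743 to 3408 with 1 library left out, against 6088. Genes called for isoform usage numbered 126 by the F test, 73 by limma, 57 at a minimum share of 1%, and 24 to 55 with 1 library left out, against 35; called transcripts numbered 0 to 0, against 1288. Between Ptbp2 KO and WT DIV1, genes called numbered 201 by DESeq2, 1061 without a filter, 25 with the length trend removed and 0 to 5549 with 1 library left out, against 0. Dpysl2 passed without a filter (0.49) and ranged from 0.16 to 0.76 with 1 library left out. With the length trend removed, Dpysl3 turned to 0.07 and Dpysl5 to 0.02. Genes called for isoform usage numbered 105 by the F test, 78 at a minimum share of 1% and 20 to 699 with 1 library left out, against 43, where the largest share difference of Dpysl5 ranged from 8.69 to 17.4 points in the 3 fits that tested it (it was not tested without Ptbp2 KO replicate 1), and called transcripts from 0 to 1211. Dpysl3-204, at 0.02, turned to -0.07 with library totals and to -0.01 at the low end of -0.01 to 0.05 with 1 library left out. The cause of these changes was not tested, except that a fit with 1 library fewer has fewer residual degrees of freedom, and that with 1 library in a group it is assumed to vary like the other groups.

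No label says that a replicate number marks a shared litter, batch or day, and the correlation of replicate differences was -0.09 between WT DIV3 and Ptbp2 KO, 0.04 between Ptbp2 KO and WT DIV1 and 0.38 between WT DIV3 and WT DIV1. With the replicate number as a block, 4702 genes were called between WT DIV3 and WT DIV1 and 0 between Ptbp2 KO and WT DIV1, 21 genes were called for isoform usage and 0 transcripts in the first comparison, and the calls of Crmp1, Dpysl3, Dpysl4 (adjusted p = 0.0432) and Dpysl5 held; with block and length correction together, Dpysl3 stood at 0.07 and Dpysl5 at 0.02 in Ptbp2 KO. With the mean annotated transcript length in place of the length of each transcript, the WT DIV1 means were 1199 TPM for Crmp1, 186 for Dpysl2, 1753 for Dpysl3, 29.4 for Dpysl4 and 692 for Dpysl5, in the same order. The members had 2127 to 324156 expected counts per library. Counting error was not set against the spread between replicates for each member. At 2127 to 4105 counts, Dpysl4 had close pairs, such as 45.3 and 45.7 CPM in WT DIV1. Counts of that size carry a counting error of their own, so the SE of 0.07 for Dpysl4 may understate its spread.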
